A study of Mus musculus with 6 samples.

Results

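Circular RNAs (circRNAs) of mouse preadipocytes were compared between the start and the end of adipogenic induction, day 0 and day 4, with 2 libraries per day. The table of the study lists 3869 circRNAs in 6 libraries. The comparison here rests on the 1368 circRNAs that reached at least 10 reads in at least 2 of the 6 libraries, and on their host genes. Stromal vascular cells were taken from adipose tissue of 6-week-old C57BL/6 mice and grown in culture. The labels call this tissue inguinal BAT. Day 0 cells, labelled proliferation, were grown in serum medium to 90% confluence. Day 4 cells had then been kept for 4 days with insulin, dexamethasone and 3-isobutyl-1-methylxanthine. A later time, day 8, followed 4 further days in a medium with insulin and T3, the thyroid hormone, without the other 2 agents. No untreated culture of the same age is among the samples, so the effect of the agents and of 4 days in culture cannot be told apart. The labels do not say whether both libraries of a day stem from different cultures or mice. The p-values therefore measure the spread between these libraries, which may be technical.

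The induction medium acts through several receptors at once. Insulin acts on the insulin and IGF1 receptors, dexamethasone on the glucocorticoid receptor, and isobutylmethylxanthine blocks phosphodiesterases and so raises cyclic AMP. In preadipocytes these signals start the cascade of transcription factors that ends in PPARgamma and C/EBPalpha, while proliferation stops and the fibroblast-like cytoskeleton and matrix are remodelled. A circRNA forms when the end of an exon is spliced back to the start of the same or an upstream exon of the same gene, its host. Circles lack free ends, are slow to decay and can build up in cells that stop dividing.

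The unit is CPM, reads of a circRNA scaled so that the listed circRNAs of each library add up to the same total. One read was worth 21.9 to 24.8 CPM, and the libraries of days 0 and 4 held between 40384 and 45733 such reads. These numbers were inferred from the steps between CPM values and are not the sequencing depth, which is unknown. No entry stands for a single read, so a circRNA listed at 0 may have had 1. Folds given as "at least" take a circRNA listed at 0 as having no more than 3 reads per library. That is an assumption, since some entries are at 0 in 1 library and well counted in the other of the same day. A host gene was assigned to 3510 of the 3869 circRNAs (90.7%), which fell on 1869 genes. Fold changes are log2 differences of day 4 minus day 0 of scaled CPM + 43.7, given with their standard error, and understate the change of circRNAs near that floor. "Called" means an adjusted p under 0.05 in limma over all circRNAs, or all host sums, tested. A host sum adds the CPM of all circRNAs of 1 gene. Host genes outside the naming rule of the methods were chosen after their values were seen.

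The circles that carry the results differ in which exons they join, and the joined bases identify each one. For 14 of them the junction is shown 5′ to 3′ from GRCm38 transcripts of GENCODE M21. Lower case marks the last 15 bases of the downstream exon, the splice donor, and capitals mark the first 15 bases of the upstream exon to which it is joined. Positions are those of the table, on mm9.
Pde4d, exons 4 to 7 of the matched transcript, chr13:110530595-110562888, plus strand: aagccaccatcacagTTTCGATGTGGACAA
Pde4d, exons 9 to 13, chr13:110724076-110729569, plus strand: ttctgatcaatacaaTTCAAAAGGATGCTG
Glcci1, exons 2 to 5, chr6:8487817-8529739, plus strand: gaagaagtgtccaagTGGACAGGCCAAAAT
Glcci1, exons 2 to 6, chr6:8487817-8532790, plus strand: atgatcgtgataaagTGGACAGGCCAAAAT
Bmper, exons 3 to 6, chr9:23058816-23105466, plus strand: acatgctcctgcgttAACAAAGAGGTGACT
Ror1, exons 5 to 7, chr4:100080418-100084745, plus strand: acatcccagcatgtgAGATGAGTATGAAGA
Tgfbr2, exons 2 to 3, chr9:116038934-116040831, minus strand: tcatcttttcggaagTTAACAGTGATGTCA
Egfr, exons 14 to 15, chr11:16781467-16783616, plus strand: caactgtacctatggGGAACCAAGGGAGTT
Bckdhb, exons 4 to 8, chr9:83882383-83906226, plus strand: gatacagtttgcaagGAAAAGATAGAGTGT
Gbe1, exons 4 to 7, chr16:70433790-70441564, plus strand: atttatctattccagGTAGTTATTACTAGT
Svep1, exons 2 to 3, chr4:58188803-58192579, minus strand: agcatgagtgcacagCAAATCCTTCGTCAC
Cacna1c, exons 2 to 3, chr6:119002619-119007533, minus strand: accaactccaacctgGTTCCAACTATGGGA
Klf7, exon 2 alone, chr1:64125281-64125908, minus strand: agaggactcacacagACATGCCTTGAGTTG
Samd4, exon 3 alone, chr14:47635952-47636470, plus strand: ccggcgcaagcacgaGAATCATTAACCAAT
Both Glcci1 circles enter exon 2, so their capitals are the same and only the donor side tells them apart. In Klf7 and Samd4 the end of an exon is joined to its own start, and the circle is a single exon of 628 and 519 bases.

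At day 4 the largest rise among called hosts was that of Zbtb16, a transcription factor, and the largest fall that of Zbtb38, another. Hosts called higher included Pde4d, Tgfbr2, Ror1, Bmper, Bckdhb and Gbe1, and hosts called lower included Zeb1, Klf7, Samd4, Rftn1 and Cacna1c. Of 1368 circRNAs tested, limma called 50 (3.65%), 34 higher (2.49%) and 16 lower (1.17%) at day 4. Of 1111 host sums, 63 were called (5.67%), 39 higher (3.51%) and 24 lower (2.16%). Every called circRNA and host sum had non-overlapping days, as had 26.5% of all tested circRNAs in the higher and 24.5% in the lower direction, and 25.3% and 27.5% of all host sums. In the whole table without a filter 316 circRNAs were called (8.17%), 46 of the 50 among them. The 34 circRNAs took up 2.18% ± 0.0766 (SD of 2 libraries) of all CPM at day 0 and 6.00% ± 0.105 at day 4, and the 16 went from 3.74% ± 0.0597 to 1.25% ± 0.0757. Those shares describe circRNAs chosen for their change. The numbers of circRNAs above 0 overlapped between the days, with 2711 and 2853 at day 0 and 2834 and 2661 at day 4.

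How many circRNAs were called rests on all 6 libraries being fitted together. With the 4 libraries of days 0 and 4 alone, limma called 0 circRNAs (252 at an unadjusted p under 0.05) and 14 host sums. Without any 1 library it called between 0 and 14 circRNAs and between 10 and 34 host sums. No circRNA was called in more than 2 of those 6 fits. The host sums of Zbtb16, Acss3, Pde4d, Zbtb38, Rftn1 and Msrb3 were called in each of those 6 fits. An exact two-sided permutation test of 2 libraries against 2 cannot go below p = 0.333.

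**Figure D1:**
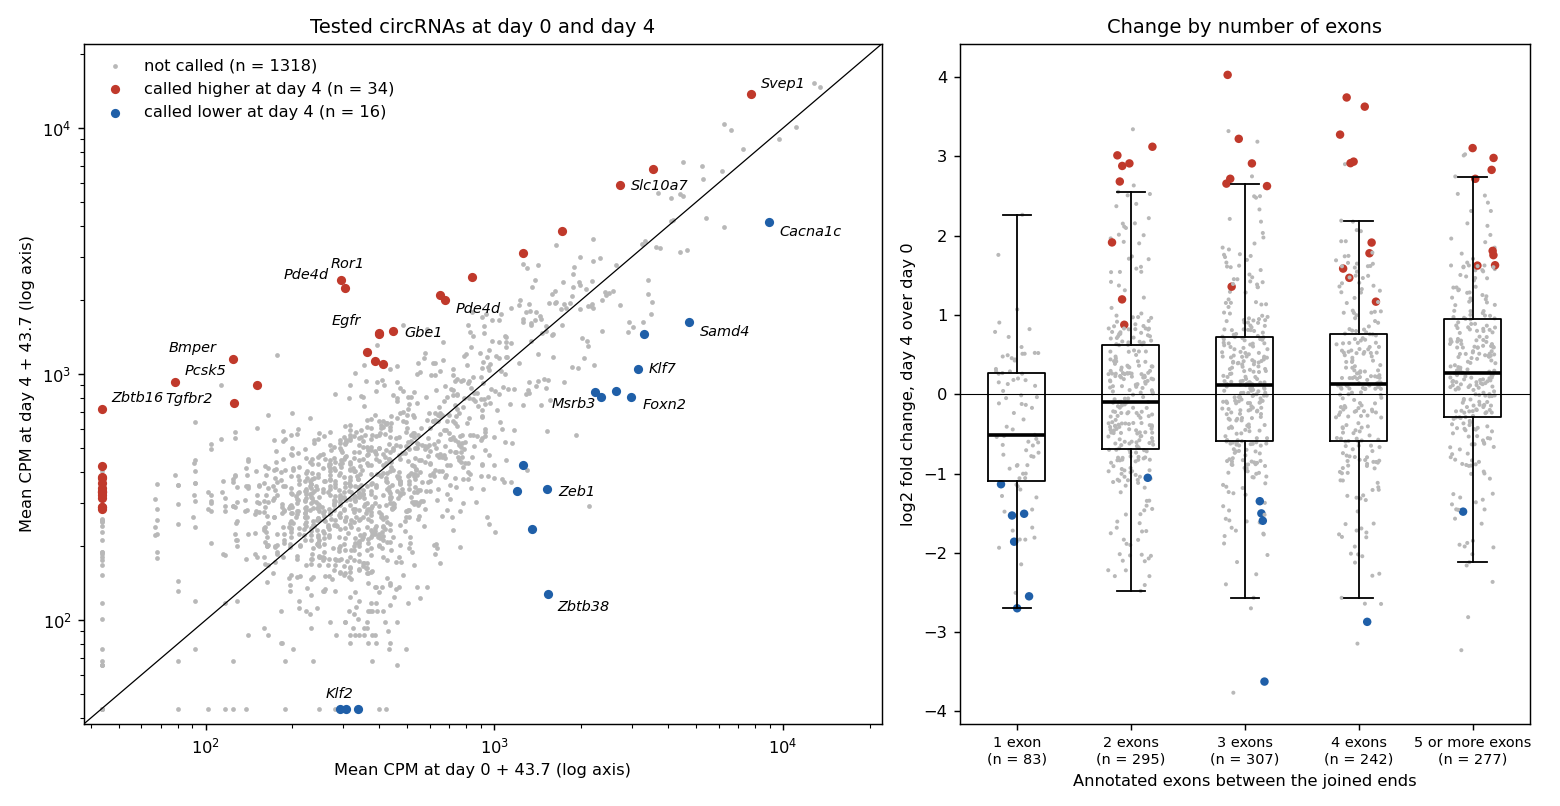
Left, mean CPM of the 1368 tested circRNAs at day 0 (x) and day 4 (y), both plus 43.7 CPM and on log axes, with the line of equality. Red points are the 34 circRNAs called higher and blue points the 16 called lower. Right, log2 fold change of day 4 over day 0 by the number of annotated exons between the joined ends, with boxes for the quartiles, whiskers to 1.5 interquartile ranges and points for single circRNAs. Single-exon circles have the lowest median, -0.51, and circles of 5 or more exons the highest, 0.27.

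Among hosts tied to cAMP and glucocorticoid signalling, circRNAs of Pde4d and Zbtb16 rose and none was called lower. Pde4d encodes a phosphodiesterase that breaks down cAMP. Its circle of exons 4 to 7 had 255 and 266 CPM at day 0 and 2034 and 2352 CPM at day 4. Both day 4 libraries lay far above both day 0 libraries, and the log2 fold change was 2.92 ± 0.24 (adjusted p = 0.0124). The circle of exons 9 to 13 had 557 and 702 CPM at day 0 and 1793 and 2130 CPM at day 4, a log2 fold change of 1.62 ± 0.25 (adjusted p = 0.0290). The Pde4d sum rose by 2.22 ± 0.20 on the log2 scale (adjusted p = 0.00660), and leaving out 1 library in turn gave adjusted p-values of 0.00776 to 0.0452. These circles do not overlap, so the rise was seen at separate parts of the gene.

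Zbtb16, also called PLZF, is a zinc finger transcription factor, a textbook target of the glucocorticoid receptor and a factor of brown fat. All 4 of its circRNAs were listed at 0 in both day 0 libraries. Their sum was 1224 and 718 CPM at day 4, 13.7-fold higher than a floor of 3 reads per library (adjusted p = 0.00705). That floor is no bound for a sum of 4 listed circles. The main Zbtb16 circle, exons 2 to 4, held 787 and 570 CPM of the day 4 sum and was at least 9.54-fold higher (adjusted p = 0.0234).

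Pde5a, a phosphodiesterase of cyclic GMP, had a circle of exons 7 to 12 listed at 0 at day 0 and at 306 and 297 CPM at day 4, at least 4.24-fold higher (adjusted p = 0.0392). Taken as a sum, Pde5a circRNAs had 464 and 291 CPM at day 0 and 1028 and 966 CPM at day 4 and missed the threshold (adjusted p = 0.0588). Gucy1a2, a subunit of the soluble guanylate cyclase that makes cyclic GMP, had 1439 and 1937 CPM at day 0 and 590 and 396 CPM at day 4. Its host sum fell by 1.65 ± 0.31 on the log2 scale (adjusted p = 0.0269, and 0.0602 to 0.11 without 1 library).

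Glcci1, a gene named for its induction by glucocorticoids and not on the list, had both of its circles called. The circle of exons 2 to 5 had 371 and 315 CPM at day 0 and 940 and 1238 CPM at day 4, and that of exons 2 to 6 had 348 and 291 CPM and then 1137 and 1238 CPM. Their sum rose by 1.76 ± 0.22 on the log2 scale (adjusted p = 0.00705, and 0.0209 to 0.0594 without 1 library). Sik2, a salt-inducible kinase that protein kinase A phosphorylates, was listed at 0 at day 0 and had 153 and 272 CPM at day 4 (adjusted p = 0.0490, and 0.0772 to 0.166 without 1 library). Fkbp5, a chaperone of the glucocorticoid receptor, had 0 and 72.6 CPM at day 0 and 197 and 322 CPM at day 4 and missed the threshold (adjusted p = 0.0974).

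The list of glucocorticoid and cAMP genes held 56 genes, and 15 of them hosted a listed circRNA. Of its 11 tested circRNAs, 4 (36.4%) were called higher and 0 lower, beside 3.65% called over all tested, and the median log2 fold change was 0.80 beside 0.09. Both Pde4d circles count among the 4. Of its 9 host sums 2, Pde4d and Zbtb16, were called (22.2%, beside 5.67% of all host sums). This and the other lists were chosen with earlier results of these data known, so their shares are descriptions. Its most abundant host that missed the threshold was Rapgef6, an exchange factor for Rap, with 905 and 847 CPM at day 0 and 1290 and 1758 CPM at day 4 (adjusted p = 0.0952 for the sum).

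**Figure D2:**
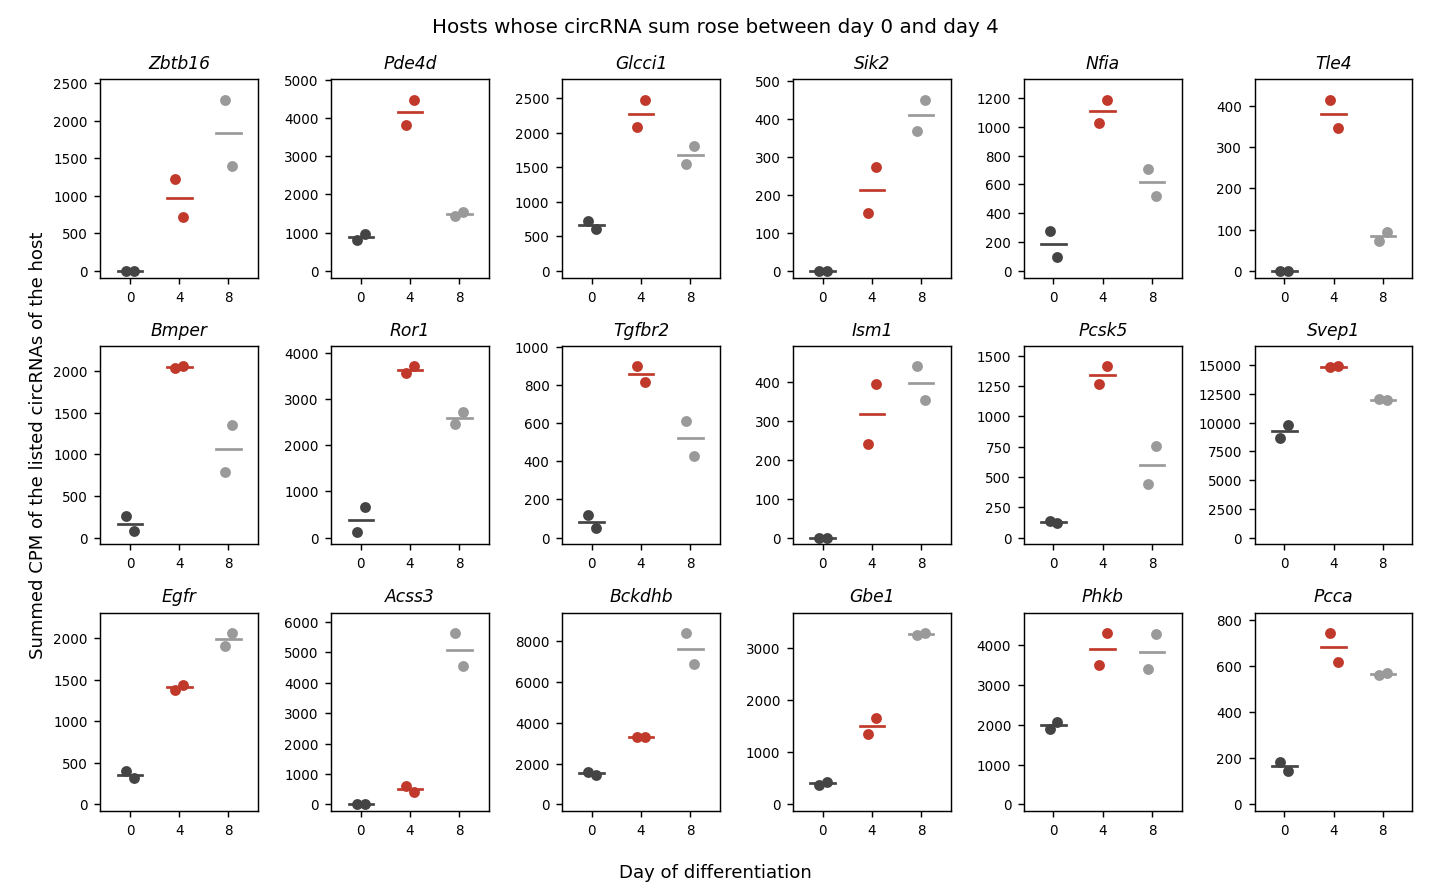
CPM of the host sums of 18 genes called higher, per library, at days 0, 4 and 8. Each point is 1 library and each line the mean of its day, on axes that differ between panels. In every panel both day 4 points lie above both day 0 points. Zbtb16, Sik2, Tle4, Ism1 and Acss3 start at 0.

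Transcription factors of fat cell formation moved in both directions. Nfia, a nuclear factor I protein that takes part in the brown fat programme, rose. Its host sum was 278 and 96.9 CPM at day 0 and 1028 and 1189 CPM at day 4, a log2 fold change of 2.47 ± 0.46 (adjusted p = 0.0268, and 0.0209 to 0.124 without 1 library). Its relative Nfix had one of the most abundant circles of the table, with 10279 and 9080 CPM at day 0 and 8943 and 9113 CPM at day 4 (log2 fold change -0.05 ± 0.14, adjusted p = 0.879). Groups overlapped for Nfix and not for Nfia.

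Zbtb38, a zinc finger protein that binds methylated DNA, had the largest fall of the called hosts. Its circle of exons 3 to 5 had 1439 and 1550 CPM at day 0 and 43.7 and 124 CPM at day 4, and its host sum fell by 3.96 ± 0.46 on the log2 scale (adjusted p = 0.00705). Zeb1, an E-box repressor of epithelial genes that also acts in adipogenesis, had a called circle with 1369 and 1598 CPM at day 0 and 153 and 446 CPM at day 4 (log2 fold change -2.25 ± 0.42, adjusted p = 0.0426). A longer Zeb1 circle with the same start had 272 ± 42.1 and 364 ± 81.2 CPM (SD of 2 libraries) at days 0 and 4. It did not follow the shorter one, since its 2 libraries of day 4 lay above those of day 0 (adjusted p = 0.670). The Zeb1 sum was called with all 6 libraries and in none of the fits without 1 library, where its adjusted p lay between 0.0594 and 0.161.

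Pparg, the main regulator of fat cell formation, had few circRNA reads. Its sum was 232 and 218 CPM at day 0 and 175 and 768 CPM at day 4, so the groups overlapped (adjusted p = 0.532). Of 57 genes on the list for adipogenic and brown fat transcription, 26 hosted a listed circRNA. Among its 26 tested circRNAs, 1 was called higher and 2 lower (11.5% in all, beside 3.65% of all tested), with a median of 0.28. Among its 19 host sums, Nfia and Zbtb16 were called higher and Zbtb38 and Zeb1 lower (21.1% in all, beside 5.67% of all host sums).

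Klf2 and Klf7 are Krüppel-like zinc finger factors known as brakes on fat cell formation. The single-exon circle of Klf2 had 255 and 242 CPM at day 0 and 0 in all libraries of days 4 and 8, at least 3.56-fold lower. It passed the filter on reads only through day 0, where it is high, so its call is no support for a fall. The single-exon circle of Klf7 had 3388 and 2809 CPM at day 0 and 1071 and 941 CPM at day 4, a log2 fold change of -1.53 ± 0.23 (adjusted p = 0.0290). Foxn2, a forkhead factor, had 2668 and 3220 CPM at day 0 and 940 and 594 CPM at day 4 in its single-exon circle (log2 fold change -1.86 ± 0.28, adjusted p = 0.0290). As single circles, neither Klf7 nor Foxn2 kept its call in any of the fits without 1 library, while their host sums kept it in some of them.

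Tle4 and Setbp1 had circles that passed the filter only through day 4, where they are high, so their calls are no support for a rise and their values are given as a description. Tle4, a Groucho corepressor, was listed at 0 at day 0 and had 415 and 347 CPM at day 4, at least 5.36-fold higher. Setbp1, which binds the protein SET, had 0 and then 328 and 347 CPM in its circle of exons 2 to 3, at least 4.74-fold higher. The whole Setbp1 sum, with 1531 and 1864 CPM at day 0 and 2536 and 1907 CPM at day 4, missed the threshold (adjusted p = 0.328). Tle4 had no other listed circle.

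On the list of TGF-beta, BMP and Wnt genes, the receptors Tgfbr2 and Ror1 and the secreted proteins Bmper and Ism1 rose. Tgfbr2, the type II TGF-beta receptor, had a circle of exons 2 to 3 with 116 and 48.4 CPM at day 0 and 743 and 693 CPM at day 4. Its log2 fold change was 2.68 ± 0.46 (adjusted p = 0.0366). Bmper, a secreted protein that binds BMPs, had 162 and 0 CPM at day 0 and 1203 and 1015 CPM at day 4 in its circle of exons 3 to 6 (log2 fold change 3.63 ± 0.70, adjusted p = 0.0455). A distal Bmper circle, exons 7 to 13, was listed at 0 at days 0 and 8 and had 241 and 248 CPM at day 4, at least 3.43-fold higher. It passed the filter only through day 4, so its call is no support for a rise.

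Ror1, a receptor for Wnt5a, had 116 and 387 CPM at day 0 and 2034 and 2699 CPM at day 4 in its circle of exons 5 to 7, a log2 fold change of 3.22 ± 0.48 (adjusted p = 0.0290). Ism1, a secreted protein also known as an adipokine, was listed at 0 at day 0 and had 241 and 396 CPM at day 4, at least 4.48-fold higher (adjusted p = 0.0406). All 4 hosts were called as sums too. Without 1 library, the adjusted p of the sum lay between 0.00559 and 0.0909 for Bmper, 4.60e-04 and 0.113 for Ror1, 0.0209 and 0.0975 for Tgfbr2, and 0.0583 and 0.11 for Ism1.

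Smad4 and Acvr2a, on the same list, did not pass the threshold. Smad4, the shared signalling partner of TGF-beta and BMP receptors, had 6 tested circles with log2 fold changes from -1.49 to 0.70 and a sum of 3063 and 2857 CPM at day 0 and 3258 and 3417 CPM at day 4 (adjusted p = 0.440). Acvr2a, an activin receptor, had 3712 and 3584 CPM at day 0 and 5751 and 5027 CPM at day 4. The groups were apart, but its sum missed the threshold (adjusted p = 0.0681). Of 64 genes on the list, 21 hosted a listed circRNA, and of its 23 tested circRNAs 5 were called higher, the distal Bmper circle among them, and 0 lower, with a median of 0.52. The share called, 21.7%, stands beside 3.65% of all tested circRNAs.

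The insulin and growth factor list had a call share near that of all circRNAs, 1 of 29 tested (3.45%) beside 3.65%. The called circle was that of Egfr. Egfr, the receptor of epidermal growth factor, had 394 and 315 CPM at day 0 and 1378 and 1436 CPM at day 4 in its circle of exons 14 to 15. The log2 fold change was 1.92 ± 0.23 (adjusted p = 0.0234), and as a sum it kept an adjusted p of 0.0209 to 0.0648 without 1 library. The insulin receptor Insr had 1694 and 1961 CPM at day 0 and 1859 and 2130 CPM at day 4, and these overlapped (adjusted p = 0.634 for the sum). Rasa2, a Ras GTPase-activating protein and the list's most abundant host, had a sum of 10743 and 11211 CPM at day 0 and 10889 and 10772 CPM at day 4 (adjusted p = 0.898). In all, 33 of 71 genes hosted a listed circRNA, and the median of the tested circRNAs was 0.28.

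Bckdhb, Gbe1 and Acss3 had the called circles of the lipid and fuel list. Bckdhb, a subunit of the complex that commits branched-chain amino acids to breakdown, had 859 and 726 CPM at day 0 and 2449 and 2451 CPM at day 4 in its circle of exons 4 to 8. This was a log2 fold change of 1.63 ± 0.17 (adjusted p = 0.0234). A second Bckdhb circle, exons 2 to 8, was listed at 0 at day 0 and had 372 and 297 CPM at day 4, at least 4.70-fold higher (adjusted p = 0.0406). The circle of exons 2 to 6 had 499 ± 82.1 and 251 ± 109 CPM (SD of 2 libraries) at days 0 and 4, below its day 0 level, and missed the threshold (adjusted p = 0.346).

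Gbe1, the glycogen branching enzyme, had 371 and 436 CPM at day 0 and 1290 and 1610 CPM at day 4 in its circle of exons 4 to 7 (log2 fold change 1.78 ± 0.22, adjusted p = 0.0234). Acss3, a mitochondrial acyl-CoA synthetase of short-chain fatty acids, was listed at 0 in every circle at day 0. The Acss3 sum was 590 and 396 CPM at day 4, 6.94-fold higher than a floor of 3 reads per library (adjusted p = 0.00705). That floor is no bound for a sum of 7 listed circles. Pcca, a subunit of propionyl-CoA carboxylase, had a sum of 186 and 145 CPM at day 0 and 743 and 619 CPM at day 4 (log2 fold change 1.83 ± 0.39, adjusted p = 0.0412). Each of these 3 hosts had its day 4 libraries above those of day 0.

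Phkb, a regulatory subunit of phosphorylase kinase, had a sum of 1903 and 2082 CPM at day 0 and 3499 and 4309 CPM at day 4 (log2 fold change 1.0 ± 0.19, adjusted p = 0.0268). Abca1, a cholesterol exporter, was listed at 0 at day 0 and had a sum of 131 and 322 CPM at day 4 (adjusted p = 0.0490). This was 3.19-fold higher than a floor of 3 reads per library, which is no bound for its 6 listed circles. No single circle of Phkb or Abca1 was called. The adjusted p of the sum without 1 library lay between 0.0366 and 0.0746 for Bckdhb, 0.0209 and 0.0580 for Gbe1, 0.0864 and 0.137 for Pcca, 0.0580 and 0.118 for Phkb, and 0.0909 and 0.166 for Abca1.

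The lipid and fuel list held 103 genes, of which 26 hosted a listed circRNA. Of its 26 tested circRNAs, 4 (15.4%) were called higher and 0 lower, beside 3.65% called over all tested, with a median of 0.59. Of its 15 host sums, 6 were called higher, beside 5.67% called over all host sums, and the median log2 fold change was 1.15 beside -0.00 over all host sums. Of these 6 hosts, Bckdhb, Pcca and Acss3 act in the breakdown of amino acids and short-chain acids, Gbe1 and Phkb in glycogen metabolism, and Abca1 in sterol export. Acaca, which makes malonyl-CoA for fatty acid synthesis, had a sum of 255 and 194 CPM at day 0 and 525 and 322 CPM at day 4 and missed the threshold (adjusted p = 0.309).

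**Figure D3:**
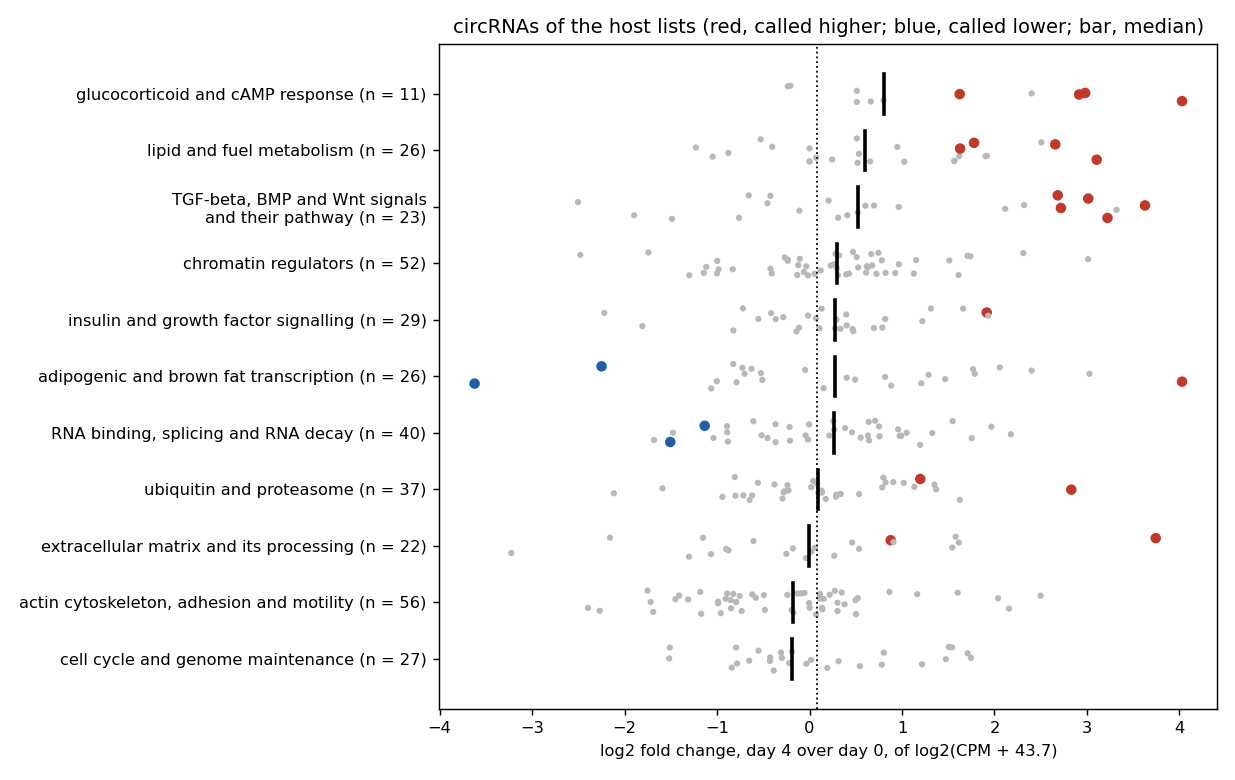
Log2 fold change of day 4 over day 0 of each tested circRNA (x), by the function of its host gene (rows). Red and blue points were called higher and lower, grey points were not called, the black bar is the median of the list, and the dotted line is the median of all tested circRNAs, 0.09. The row of glucocorticoid and cAMP genes has the highest median, 0.80, and the cell cycle row the lowest, -0.19.

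On the matrix list, Svep1 and Pcsk5 were called higher. The 1 host called lower, Ltbp2, passed the filter only through day 0. The Svep1 circle of exons 2 to 3, from a large secreted adhesion protein, had 7611 and 7869 CPM at day 0 and 13798 and 13743 CPM at day 4. It had the third highest mean of the table over these 4 libraries, and a log2 fold change of 0.88 ± 0.12 (adjusted p = 0.0284). Another Svep1 circle, exons 18 to 21, had 523 ± 82.8 CPM (SD of 2 libraries) at day 0 and 261 ± 121 CPM at day 4, the opposite order (adjusted p = 0.353). Pcsk5, a proprotein convertase that matures secreted factors, had 69.6 and 0 CPM at day 0 and 809 and 966 CPM at day 4 in its circle of exons 6 to 9 (log2 fold change 3.74 ± 0.59, adjusted p = 0.0321).

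Ltbp2, a relative of the proteins that hold latent TGF-beta in the matrix, had 348 and 412 CPM at day 0 and 0 in both libraries of day 4, at least 5.43-fold lower (adjusted p = 0.0445). It passed the filter on reads only through day 0, where it is high, so its call is no support for a fall. Its adjusted p without 1 library lay between 0.0366 and 0.162. The list of 93 matrix genes had 26 hosts of a listed circRNA. Of its 22 tested circRNAs, 2 (9.09%) were called higher and 0 lower, beside 3.65% called over all tested, with a median of -0.01. Of its 15 host sums 2 were called higher and 1, Ltbp2, lower (20% in all, beside 5.67% of all host sums). That share counts the Ltbp2 call, which is no support for a fall.

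Sdk1, Ano3 and Slit3, hosts on no list, rose. Sdk1, an adhesion protein of the immunoglobulin superfamily, had a sum of 302 and 48.4 CPM at day 0 and 2274 and 1733 CPM at day 4 (log2 fold change 3.55 ± 0.58, adjusted p = 0.0176). Ano3, of the anoctamin family of membrane proteins, had 0 and 169 CPM at day 0 and 1181 and 817 CPM at day 4 (adjusted p = 0.0416). Slit3, a secreted guidance factor, had 510 and 387 CPM at day 0 and 1181 and 1362 CPM at day 4 (adjusted p = 0.0412). Without 1 library these adjusted p-values lay between 0.00559 and 0.113, 0.0142 and 0.163, and 0.0649 and 0.156.

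In the actin and adhesion list 0 of 56 tested circRNAs were called, beside 3.65% of all tested, and its median was -0.18. Of its 39 host sums, 1 (2.56%) was called, beside 5.67% of all host sums. It was that of the formin Diaph2, with 534 and 605 CPM at day 0 and 1859 and 2848 CPM at day 4 (log2 fold change 1.98 ± 0.25, adjusted p = 0.00705). Those 39 sums had a median of -0.58. Arhgap12, a GTPase-activating protein, had a sum of 3016 and 3245 CPM at day 0 and 1618 and 1610 CPM at day 4 and missed the threshold (adjusted p = 0.0510). Lpp, a protein of focal adhesions, had 1183 and 751 CPM at day 0 and 219 and 49.5 CPM at day 4 (adjusted p = 0.0698).

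Rftn1, Trip6 and Arhgef40, hosts on no list, fell. Rftn1, a protein of lipid rafts, had a sum of 2738 and 3341 CPM at day 0 and 306 and 594 CPM at day 4 (log2 fold change -2.65 ± 0.32, adjusted p = 0.00705). One of its circles (mmu_circ_0006808) had 82 and 94 reads at day 0, then 0 and 20 at day 4. Trip6, a LIM domain protein of focal adhesions, had 905 and 1138 CPM at day 0 and 197 and 173 CPM at day 4 (adjusted p = 0.0268, and 0.0580 to 0.11 without 1 library). Arhgef40, a guanine nucleotide exchange factor, had 1137 and 1283 CPM at day 0 and 372 and 396 CPM at day 4 in its only circle (adjusted p = 0.0406, and 0.0816 to 0.127 without 1 library). In all 3 hosts the groups were wide apart.

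Some hosts with a called circle or a called sum share no list. Foxj3, a forkhead factor, and Srpk2, a kinase of splicing factors, each had a circle listed at 0 at day 0 and at 328 and 248 CPM at day 4, at least 4.05-fold higher. Both circles passed the filter only through day 4, so these calls are no support for a rise. Neither Foxj3 nor Srpk2 was called as a sum. Tbc1d32, a protein of cilia, was listed at 0 and then at 262 and 322 CPM, at least 4.11-fold higher (adjusted p = 0.0392). Acer2, an alkaline ceramidase, and Tox, an HMG box factor, were likewise listed at 0 at day 0, with sums of 219 and 272 CPM and of 219 and 198 CPM at day 4. The named circles of Foxj3 and Srpk2 and the sums of Tbc1d32, Acer2 and Tox had few reads even at day 4.

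Among hosts with higher levels, Elf2, an ETS factor, had a sum of 1949 and 1404 CPM at day 0 and 4176 and 3838 CPM at day 4 (log2 fold change 1.30 ± 0.20, adjusted p = 0.0138, and 0.0209 to 0.0909 without 1 library). Ust, a sulfotransferase of chondroitin and dermatan sulfate, had 371 and 339 CPM and then 1684 and 1288 CPM (log2 fold change 1.97 ± 0.28, adjusted p = 0.0108, and 0.0324 to 0.0909 without 1 library). Man2a1, a mannosidase of the Golgi, had 1021 and 1574 CPM and then 3061 and 2625 CPM (adjusted p = 0.0443, and 0.0388 to 0.163 without 1 library). The sums of Atrnl1, Homer1, Gphn and Gm21992 were called higher as well, and those of Snx5, Crim1, Amotl1, Rps6kc1 and Ripk2 lower, with log2 fold changes from 0.80 to 3.00 and from -1.90 to -0.93. Of these, Snx5, a sorting nexin, had the largest fall, from 2993 and 3269 CPM to 897 and 669 CPM (adjusted p = 0.0268, and 0.0366 to 0.131 without 1 library).

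Cacna1c, the pore subunit of the L-type calcium channel, hosted the most abundant of the circRNAs called lower. Its circle of exons 2 to 3 had 9026 and 8765 CPM at day 0 and 3827 and 4432 CPM at day 4, a log2 fold change of -1.05 ± 0.17 (adjusted p = 0.0345). Msrb3, a methionine sulfoxide reductase, had 2784 and 2421 CPM at day 0 and 700 and 916 CPM at day 4 in its circle of exons 3 to 5 (log2 fold change -1.60 ± 0.21, adjusted p = 0.0284). Ptchd4, a protein with a Patched domain, had 975 and 1647 CPM at day 0 and 284 and 99.0 CPM at day 4 in its single-exon circle (adjusted p = 0.0455). Each of the 3 circles lost its call without any 1 library, with adjusted p-values from 0.0690, 0.0679 and 0.0642 upward.

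Among the rest of the largest called falls, Car8, a carbonic anhydrase-related protein, had a sum of 719 and 508 CPM at day 0 and 0 and 74.3 CPM at day 4 (adjusted p = 0.0412). The Car8 sum passed the filter only through day 0, where it is high, so its call is no support for a fall. Mindy4, of a family of deubiquitinases, had 371 and 218 CPM at day 0 and 0 in both libraries of day 4, at least 4.21-fold lower (adjusted p = 0.0494 for its circle). With 16 and 9 reads at day 0 and 6 and 11 at day 8, it would not have passed the filter without day 0. Its call is therefore no support for a fall. The called circles without an assigned host were mmu_circ_0001293 (chr4:141966372-141967259, minus strand), with 209 and 315 CPM and then 0 and 0, and mmu_circ_0013775 (chr7:118741317-118742637, minus strand), with 1415 and 896 CPM and then 262 and 322 CPM. For mmu_circ_0001293, with 9 and 13 reads at day 0 and 11 and 9 at day 8, the call has the same limit as that of Mindy4.

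**Figure D4:**
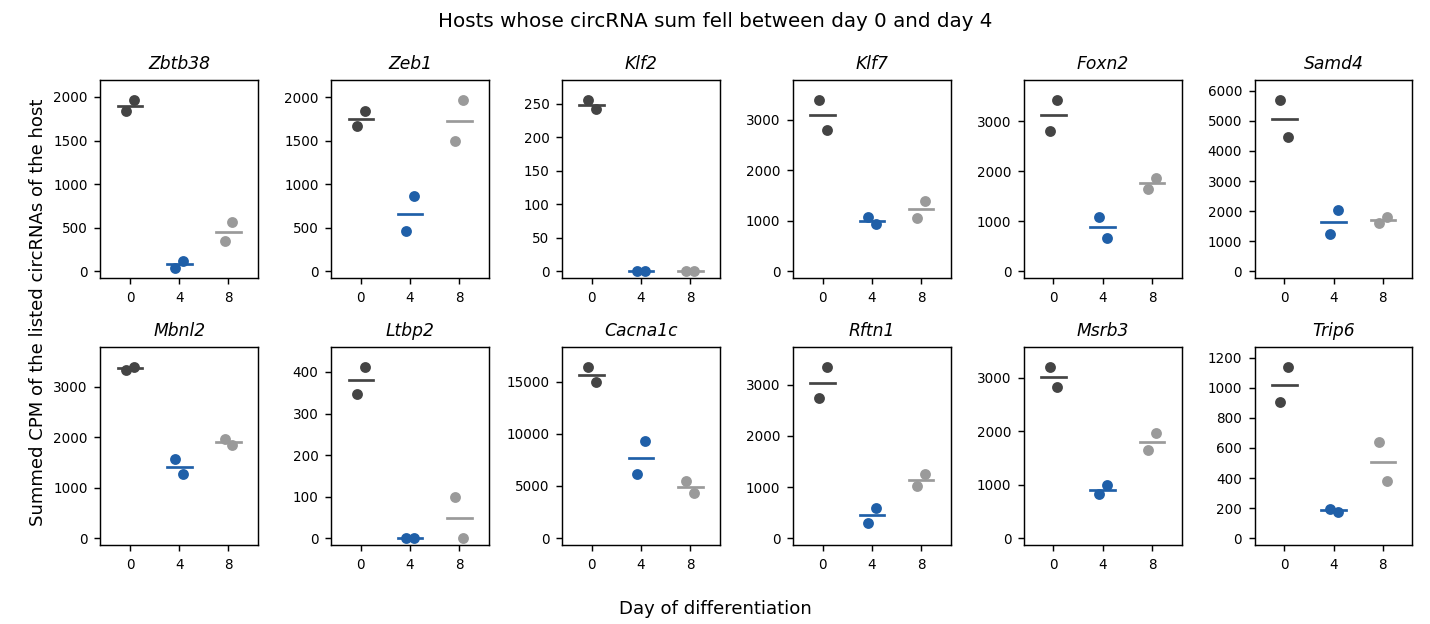
CPM of the host sums of 12 genes called lower, per library, at days 0, 4 and 8. Each point is 1 library and each line the mean of its day, on axes that differ between panels. Both day 4 points lie below both day 0 points in every panel, and Klf2 and Ltbp2 reach 0 at day 4.

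On the RNA-binding list, 2 host sums were called in each direction. Samd4, a repressor of translation related to Smaug, had 5313 and 4068 CPM at day 0 and 1246 and 1931 CPM at day 4 in its single-exon circle (log2 fold change -1.51 ± 0.23, adjusted p = 0.0290). Mbnl2, a muscleblind splicing factor, had 3225 and 3293 CPM at day 0 and 1574 and 1263 CPM at day 4 in its single-exon circle (log2 fold change -1.13 ± 0.21, adjusted p = 0.0406). Its paralogue Mbnl1 gave a sum with a log2 fold change of -0.10 (adjusted p = 0.914).

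Pan3 and Cnot6l, subunits of the machinery that shortens poly(A) tails, were the host sums called higher. Pan3, of the PAN2-PAN3 deadenylase, had a sum of 2111 and 1647 CPM at day 0 and 4461 and 4878 CPM at day 4 (log2 fold change 1.35 ± 0.19, adjusted p = 0.0108). Cnot6l, a catalytic subunit of the CCR4-NOT deadenylase, had 7587 and 6780 CPM at day 0 and 9359 and 13619 CPM at day 4 (log2 fold change 0.70 ± 0.16, adjusted p = 0.0497). Without 1 library the adjusted p lay between 0.0245 and 0.0787 for Pan3 and between 0.0452 and 0.182 for Cnot6l. Other subunits of CCR4-NOT were not called, with sums at log2 fold changes of -0.13 for Cnot1 (adjusted p = 0.914), -0.10 for Cnot4 (adjusted p = 0.871) and 0.89 for Cnot2 (adjusted p = 0.0885). Of 40 tested circRNAs on the RNA-binding list, 0 were called higher and 2 lower (5.00% in all, beside 3.65%), with a median of 0.26. Of its 28 host sums, 14.3% were called, beside 5.67% of all host sums.

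The cell cycle list had 135 genes, of which 44 hosted a listed circRNA. Of its 27 tested circRNAs, with a median of -0.19, 0 were called, beside 3.65% of all tested, a share at which 27 circRNAs would hold about 1 call. Bub1b, a kinase of the spindle checkpoint, had a sum of 1207 and 1816 CPM at day 0 and 634 and 545 CPM at day 4, apart but short of the threshold (adjusted p = 0.0767). The list of chromatin regulators had 0 calls among 52 tested circRNAs, beside the same 3.65%, and a median of 0.30. Uhrf2, a ubiquitin ligase that reads modified cytosine and histones, had 3527 and 3559 CPM at day 0 and 1312 and 2253 CPM at day 4 (adjusted p = 0.0763). At unadjusted p under 0.05, limma counted 273 of all 1368 circRNAs, and no alternative tool was run on these lists.

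In the ubiquitin list the E3 ligases March3 and Rnf13 were called. The March3 circle had 1833 and 1525 CPM at day 0 and 4023 and 3516 CPM at day 4 (log2 fold change 1.2 ± 0.18, adjusted p = 0.0290). A circle of Rnf13 was listed at 0 at day 0 and had 241 and 297 CPM at day 4, at least 3.78-fold higher (adjusted p = 0.0418). Nedd4, an abundant member and the ligase of many membrane proteins, had a sum of 4014 and 3269 CPM at day 0 and 3171 and 3269 CPM at day 4 (adjusted p = 0.702). Of its 37 tested circRNAs, 2 (5.41%) were called higher and 0 lower, near the 3.65% called over all, with a median of 0.09.

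Of the 10 circRNAs with the highest mean over days 0 and 4, those of Svep1 and Cacna1c were called, beside 3.65% of all tested. The single-exon circle of Hipk3, a well-known abundant circRNA, had 12854 and 12785 CPM at day 0 and 16640 and 13768 CPM at day 4 (log2 fold change 0.29 ± 0.15, adjusted p = 0.352). That of the long non-coding RNA Pvt1 had 14084 and 12712 CPM at day 0 and 13666 and 15674 CPM at day 4, and these overlapped (log2 fold change 0.18 ± 0.11, adjusted p = 0.417). The circle of Med13l, a subunit of the Mediator kinase module, had 6195 and 6949 CPM at day 0 and 11829 and 7800 CPM at day 4, a wide spread at day 4 (adjusted p = 0.223). The circles of Lrch3 and Erbin, both leucine-rich repeat proteins, overlapped between the days, and that of Cnot6l, with 6427 and 6005 CPM at day 0 and 8309 and 12356 CPM at day 4, missed the threshold (adjusted p = 0.0716).

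Circles of 1 host did not always move together. Rere, an atrophin-like corepressor, had 8 tested circles with log2 fold changes from 0.49 to 2.33. All were above 0 and 6 had both day 4 libraries above both day 0 libraries, against 26.5% of all tested circRNAs. None was called singly, but their sum, with 3666 and 3874 CPM at day 0 and 6582 and 6215 CPM at day 4, was called (adjusted p = 0.0268, and 0.0649 to 0.128 without 1 library). All 7 circles of Cacna1c had log2 fold changes below 0, from -2.70 to -0.10, and 6 of them had both day 4 libraries below both day 0 libraries, against 24.5% of all tested circRNAs. The circle at -2.70 (mmu_circ_0012995), among these 6, had 81 and 45 reads at day 0 and 0 and 44 at day 4. Its value rests on the library at 0, and its other day 4 library lay only just below day 0.

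Arhgap10, a GTPase-activating protein, was the host with the most tested circles, 10, and these ran from -2.27 to 0.50 with 0 calls. Its circle of exons 14 to 18 had 3483 ± 29.1 CPM (SD of 2 libraries) at day 0 and 1925 ± 586 CPM at day 4 (adjusted p = 0.129). Glis3, a zinc finger factor, had 6 tested circles from -0.12 to 0.97 with 0 calls. In Slc10a7, of the family of bile acid transporters, 8 tested circles ran from -0.97 to 3.19. Its circle of exons 2 to 5 had 2413 and 2954 CPM at day 0 and 6122 and 5596 CPM at day 4 and was called (log2 fold change 1.17 ± 0.18, adjusted p = 0.0290). Its shorter circle of exons 2 to 4 (mmu_circ_0014993) was listed at 0 in 1 library of day 0 and had 137 reads in the other. The highest value, 3.19, is that of this circle and rests on the library at 0. Circles of 1 host share its transcription and often an exon end, and are not replicates.

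**Figure D5:**
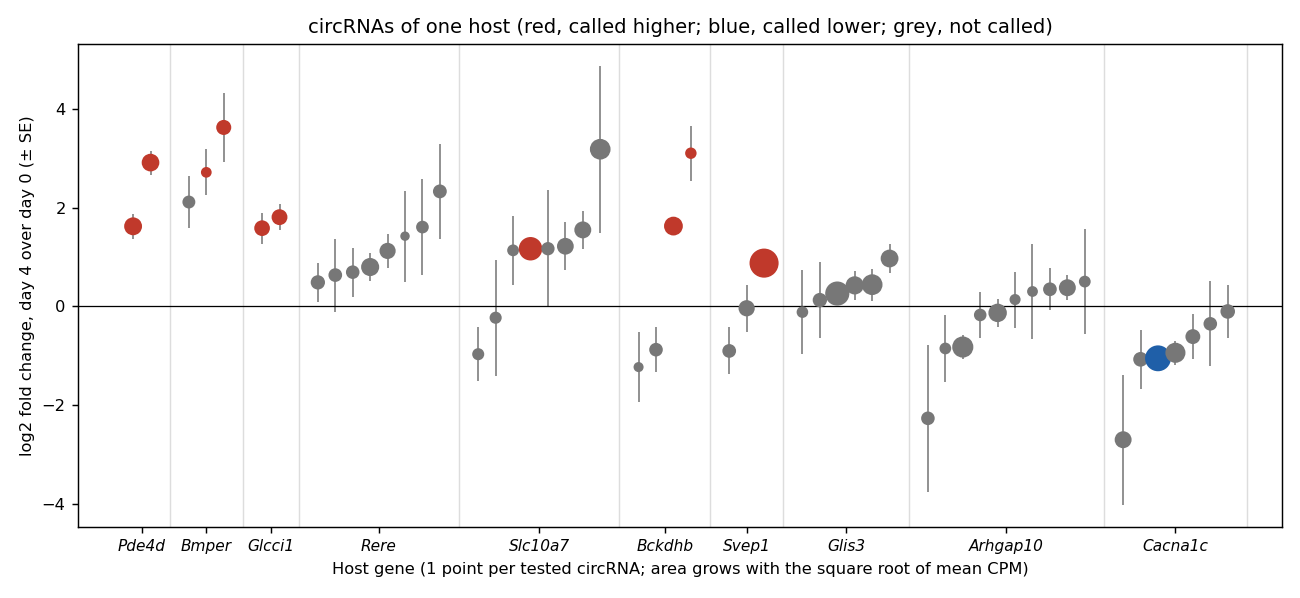
Log2 fold change of day 4 over day 0 with its standard error (y) of each tested circRNA of 10 hosts with several tested circles (x). Point area grows with the square root of mean CPM. Red and blue points were called higher and lower, and grey points were not called. The 8 circles of Rere all lie above 0 and the 7 of Cacna1c all lie below 0, while those of Bckdhb and Svep1 lie on both sides.

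The change also varied with how many exons a circle spans. Of 83 tested circles with a single annotated exon, 36 (43.4%) had both day 4 libraries below both day 0 libraries and 10 (12.05%) above, and 6 were called, all lower. Those 6 were the circles of Klf2, Klf7, Foxn2, Samd4, Mbnl2 and Ptchd4, of which Klf2 passed the filter only through day 0. Among 277 circles of 5 or more exons the order was the opposite, with 43 (15.5%) below and 95 (34.3%) above, and 8 called higher against 1 lower. Over all tested circRNAs, 24.5% lay below and 26.5% above, with 2.49% called higher and 1.17% called lower. The median log2 fold change was -0.51 for 1 exon, -0.09 for 2, 0.11 for 3, 0.13 for 4 and 0.27 for 5 or more exons.

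The median level of the classes was alike, between 298 and 325 CPM. Single-exon circles took 10.6% ± 0.147 (SD of 2 libraries) of all CPM at day 0 and 9.23% ± 0.105 at day 4, and circles of 5 or more exons took 13.5% ± 0.0612 and 15.7% ± 0.0822. In both classes the 2 libraries of a day lay closer to each other than to the other day. CPM shares sum to a fixed total, so a larger share of one class lowers that of the others.

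Circles called higher spanned a median of 26782.5 bp of genome and those called lower 1424.5 bp, against 7922 bp over all tested. Their exons added up to medians of 473 and 519 bases, against 429.5 bases. Of the called circles with matched exons, 15 of 33 higher and 6 of 13 lower ones started at exon 2, as did 44.0% of all tested circles with matched exons. A circBase identifier was present for 64.7% of those called higher, 87.5% of those called lower and 80.5% of all tested.

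Day 8 followed 4 days without dexamethasone and isobutylmethylxanthine. Of the 34 circRNAs called higher at day 4, 21 (61.8%) had both day 8 libraries below both day 4 libraries, as had 26.2% of all tested. The comparisons share the day 4 libraries, and circles chosen for high day 4 values tend to be lower at any other time, so these counts are descriptions. The Pde4d circle of exons 4 to 7 went back to 759 ± 1.01 CPM (SD of 2 libraries), that of Tle4 to 84.1 ± 15 CPM and that of Tgfbr2 to 447 ± 95.8 CPM. Of the 34, 32 had both day 8 libraries above both day 0 libraries, as had 360 of all 1368 tested. The exceptions among the 34 were the Pde4d circle of exons 9 to 13, with 734 ± 67.7 CPM, and the distal Bmper circle at 0.

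Of the 34 circRNAs called higher, 8 (23.5%) had both day 8 libraries above both day 4 libraries, near the 22.7% of all tested. These 8 were the circles of Acss3, Bckdhb (exons 4 to 8), Gbe1, Egfr, Zbtb16, Acer2, Rnf13 and Tbc1d32. The Acss3 circle of exons 3 to 5 had 240 ± 93.9 CPM (SD of 2 libraries) at day 4 and 2428 ± 654 CPM at day 8. Bckdhb went from 2450 ± 1.75 to 5618 ± 474 CPM and Gbe1 from 1450 ± 226 to 2963 ± 2.31 CPM. Of the 16 circles called lower, 10 (62.5%) had both day 8 libraries above both day 4 libraries, as had 22.7% of all tested. Zeb1 was among these 10, with 299 ± 207 CPM at day 4 and 1228 ± 73.0 CPM at day 8. The circles of Cacna1c and Ttc3, an E3 ligase, lay below day 4. These counts, too, are descriptions.

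The label of the cells was checked against host genes that mark cell types. Of 15 adipocyte markers, Acaca, Ebf2, Pparg and Prdm16 hosted a listed circRNA, and their summed level was 812 and 847 CPM at day 0, against 984 and 1362 CPM at day 4, and 2156 and 2724 CPM at day 8. No circRNA of Ucp1, Adipoq or the other adipocyte markers is listed, and many of those genes may form no circle, so their absence does not show the cell type. Prdm16, a factor of brown fat, had a sum of 325 and 339 CPM at day 0 and 197 and 223 CPM at day 4 (adjusted p = 0.585).

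Of the markers of other cells, 2 of 11 fibroblast genes (Fn1 and Pdgfra), 1 of 9 muscle genes (Dmd), 2 of 6 immune genes (Adgre1 and Mertk), 0 of 6 endothelial and 0 of 5 nerve genes hosted a listed circRNA. The summed immune level was 232 and 266 CPM at day 0 and 306 and 347 CPM at day 4. Muscle gave 232 and 581 CPM and then 394 and 248 CPM, and fibroblasts 92.8 and 96.9 CPM and then 43.7 and 198 CPM. No marker host was called. In bulk RNA, fewer cells of a type and less RNA per cell cannot be told apart, and the part of other cells in the results above was not tested. Linear RNA was removed before sequencing, so no level of a host's messenger RNA stands beside these values.

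A circRNA could pass the filter through day 4 alone, and then it had to be high there. Of the tested circRNAs, 36 passed only through day 4, of which 5 were called higher (Tle4, Setbp1, Foxj3, Srpk2 and the distal Bmper circle), 66 only through day 0, of which 1 was called lower (Klf2), and 48 only through day 8. Of the called host sums, those of Ltbp2, Car8 and Klf2 passed only through day 0, and that of Tle4 only through day 4. The called circles and sums of Mindy4 and mmu_circ_0001293 needed a day 0 library to pass beside day 8. The called Sdk1 circle (mmu_circ_0012260) needed a day 4 library beside day 8. Among the 50 called circRNAs, 14 were listed at 0 in both day 0 libraries and 3 in both day 4 libraries. In tables simulated for this comparison with 1368 circRNAs, limma called 17.5% of circRNAs changed 2-fold, 71.0% of those changed 4-fold, 96.3% of those changed 8-fold and 0.304% of those unchanged, so many 2-fold changes would be missed at this depth.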

How the data were processed

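RNA depleted of ribosomal and linear RNA was sequenced at days 0, 4 and 8, with 2 libraries per day. Per the submitters' processing notes, FastQC 0.11.9, HISAT2 2.2.0 and mm9 were used. How circRNAs were called is not stated in those notes or in the labels. The authors deposited CPM per circRNA and library, summing to 1e+06 per library over the listed circRNAs. Reads were inferred as CPM divided by the step between values (the smallest entry is 2 steps, largest deviation 2.52e-07 of a step). These reads served only to filter (2 or more libraries with 10 or more reads) and were not tested as counts.

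Host genes came from GENCODE M21 (GRCm38) by exon spacing, with no coordinates converted. A host needed an exon start and an exon end of 1 gene on the same chromosome and strand, within 5 Mb and exactly the length of the circRNA apart, and an offset shared within 1 kb by at least 3 circRNAs within 10 Mb. This gave 3399 circRNAs a host, and a shared end another 111. Of the rest, 359 had none, and 0 matched on the opposite strand. Exons are numbered in 1 matched transcript.

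CPM were scaled by trimmed means of M-values, a pseudocount of 43.7 CPM was added, and log2 values of all 6 libraries were fitted with limma 3.58.1 (R 4.3.3, mean-variance trend, Benjamini-Hochberg, threshold 0.05). The median log2 fold change was 0.09, and 0.04 without scaling. Libraries of 1 day differed beyond counting noise (chi-square per degree of freedom 2.71 at day 0 and 3.14 at day 4), and each was fitted as a separate library. This cannot tell repeats of 1 culture from separate cultures, since the preparation of libraries may add spread too. The procedure was tested on 20 simulated tables with 200 changed circRNAs each and a dispersion of 0.0559.

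The text names the 12 called circRNAs per direction with the largest change, called circRNAs of listed hosts, the 10 most abundant, the 8 largest called host sums per direction, the 5 hosts with most tested circRNAs and abundant members of each list. The comparison, host lists and markers were chosen with earlier results of these data known.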

Additional observations from a re-analysis of the deposited data

How the results depend on the processing

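The limma count of 50 circRNAs lay between 44 and 55 under no scaling, median-of-ratios factors, either other pseudocount and either stricter filter, and the count of 63 host sums between 52 and 71 under these and the stricter host rule. Without the filter 316 circRNAs and 173 host sums were called, and the cause was not tested. With the 4 libraries of days 0 and 4 alone the counts were 0 (252 at an unadjusted p under 0.05, lowest adjusted p 0.0750) and 14. Leaving out 1 library in turn gave 0 to 14 circRNAs (224 to 272 at an unadjusted p under 0.05) and 10 to 34 host sums. With a replicate block, 0 circRNAs (250 at an unadjusted p under 0.05) and 44 host sums were called. The deviations of same-numbered libraries correlated at -0.02 for days 0 and 4. That value shows no pairing by replicate number but cannot exclude one, since the noise of low counts can hide it. The lists held 22 called circRNAs and 26 called host sums. Of 894 comparisons of 60 named values with an alternative, 891 kept their direction, 375 of which lost the threshold and 1 of which passed it. The 3 that changed sign had not been called: Nfix (0.0111 without day 0 replicate 1; -0.11 to 0.0111 over the libraries left out), Lrch3 (-0.0044 without day 4 replicate 1, up to 0.42) and Erbin (-0.11 without day 4 replicate 1, up to 0.41). The cause was not tested. The planned edgeR test on inferred reads was not run, because the deposited values are CPM and no entry stands for 1 read.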

Other observations

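A number of circRNAs were listed at 0 in 1 library and well counted in the other library of the same day. At a minimum of 20 reads in the other library there were 45 such entries, 8 and 7 with the 0 in replicate 1 and 2 of day 0, 10 and 4 at day 4, and 6 and 10 at day 8. The most extreme was the Slc10a7 circle of exons 2 to 4 (chr8:81039485-81055057), with 137 and 0 reads at day 0, 130 and 153 at day 4 and 53 and 79 at day 8. A circle of Sept9, a septin, had 90 and 0 reads at day 0 and 60 and 59 at day 4. For Lrp6, a Wnt co-receptor, 1 circle had 54 and 74 reads at day 0 and 68 and 0 at day 4, and its log2 fold change of -2.50 was not called (adjusted p = 0.385). A Cacna1c circle (mmu_circ_0012995) had 81 and 45 reads at day 0 and 0 and 44 at day 4.

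Of the 29 circRNAs with such an entry at day 0 or day 4, 28 were tested and 0 were called, so no called circRNA has one. The called host sums of Slc10a7 (2 circles), Cacna1c, Rftn1 and Diaph2 do hold such entries at day 0 or day 4. The Slc10a7 sum, 8051 and 4504 CPM at day 0 and 13863 and 13644 CPM at day 4, was called with all libraries (adjusted p = 0.0268) and had an adjusted p of 0.0601 without day 0 replicate 2, the library at 0. The Cacna1c sum, 16381 and 14940 CPM at day 0 and 6101 and 9261 CPM at day 4 (adjusted p = 0.0269), was lower in the day 4 library at 0. The Rftn1 circle (mmu_circ_0006808) had 82 and 94 reads at day 0 and 0 and 20 at day 4, and the Rftn1 sum was called in each fit without 1 library (adjusted p from 0.0209 to 0.0452). The Diaph2 circle had 0 and 0 reads at day 0 and 0 and 29 at day 4. The source of these entries was not tested.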
